A study of Xenopus laevis with 20 samples.

Results

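The genes described here are 10 transcription factor genes known as neural crest specifiers, namely foxd3, snai1, snai2, sox8, sox9, sox10, twist1, ets1, myc and mycn. Members were all probe sets whose array annotation gave exactly 1 symbol that, without the ending .L or .S, is one of these names. That rule found 27 probe sets for 16 gene copies, out of 32539 non-control probe sets and 11303 gene copies named on the array. The frog Xenopus laevis carries most genes in an L and an S copy, one on the longer and one on the shorter chromosome of each related pair. Both copies were found for foxd3, snai2, sox9, ets1, myc and mycn, and a single copy was found for snai1 (snai1.S), sox8, sox10 and twist1 (L copies). Probe sets that read below log2 4 on more than 15 of the 20 arrays could not pass the filter on dim signals, so 23 of the 27 were tested, covering 13 of the 16 gene copies.

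The 20 arrays each hold the RNA (100 ng) of 1 animal cap explant, 5 per injection, and are Affymetrix Xenopus laevis Genome 2.0 arrays with values deposited as log2 intensities. An animal cap is the prospective ectoderm of a blastula, here cut out at stage 9 after mRNA injection at the 2-cell stage. The 4 groups received mRNA for Pax3GR, for Zic1GR, for both (the combination) or for GR, the glucocorticoid receptor alone, as the control. All 4 groups, the control included, were kept in dexamethasone for 8 h, the hormone that switches on proteins fused to the receptor. Injected message acts throughout the cap and not in a natural border region, and the labels do not say whether explants came from separate clutches. The p-values therefore measure the spread between these explants. In whole explants, fewer cells of a type and less RNA per cell cannot be told apart.

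Pax3 and Zic1 are transcription factors of the neural plate border, the strip of ectoderm between neural plate and epidermis. Under Wnt and FGF signals and intermediate BMP activity, border factors switch on the crest specifiers. These in turn hold crest cells in a multipotent state, drive their change from epithelium to migrating cells, and open the way to pigment, glia, cartilage and peripheral neurons. Foxd3 acts early and mostly as a repressor. Snai1 and Snai2 are zinc finger repressors of adhesion genes, Sox8, Sox9 and Sox10 form the SoxE family, and Twist1 is a basic helix-loop-helix factor of migrating cranial crest. Ets1 is known for the delamination of cranial crest, and Myc and Mycn regulate growth and proliferation of progenitors.

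The arrays were alike in scale. Array medians lay between 6.1 and 6.3, and log2 4, taken as the background level, was reached by 18949 to 19239 probe sets on each. The number of arrays limits the precision. GR replicate 3, Pax3GR replicate 1 and Zic1GR replicate 5 correlated least with the rest of their groups, at mean r of 0.963, 0.881 and 0.925, and combination replicate 4 did so at 0.922. Signal of pax3.S and zic1.S stood above GR in all injected groups and did not single out the factor given. For pax3.S, Xl2.49495.3.S1_x_at read 2.29 to 2.54 with GR, 13.24 to 13.35 with Pax3GR and 12.83 to 13.00 with both. It also read 8.27 to 10.95 in Zic1GR caps, which received no pax3 message. For zic1.S, Xl2.1796.1.S2_at read 6.33 to 8.35 with GR, 11.84 to 13.06 with Zic1GR and 13.47 to 13.89 with both, and was highest in Pax3GR caps (13.81 to 14.10), which received no zic1 message. Among the pax3.L probe sets Xl2.45055.1.S1_at was as bright with GR (13.90 to 14.15) as with Pax3GR (13.97 to 14.26). Which of these probe sets the injected message itself can bind is not given in the labels. Epidermal markers were present in GR caps and lower in part of the injected ones: keratin krt70.S read at least 14.79 on all 20 arrays, while krt12.4.S read as low as 11.22. The epidermal regulator tp63.S (Xl2.34499.1.S1_at), up to 8.05 in GR, read at most 1.96 in Pax3GR and 2.04 in Zic1GR, and reached 6.37 in the combination. In the same order of groups the highest values were 9.97, 3.66, 4.88 and 9.08 on Xl2.34499.1.S1_s_at of tp63.S. For tp63.L they were 7.65, 2.43, 2.5 and 7.83.

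Most of the 13 tested gene copies stood higher with each injection than with GR. With Pax3GR 15 of the 23 tested probe sets rose and 4 fell (10 gene copies up, 2 down), against 50.3% of all 20519 tested probe sets called in that comparison, 27.3% higher and 23% lower. With Zic1GR 16 rose and 1 fell (9 copies up, 1 down), against 51.4% called, 28.6% higher and 22.8% lower. With the combination 17 rose and 0 fell (11 copies up), against 44.8% called, 24.6% higher and 20.3% lower. In the combination the 6 tested probe sets not called belonged to ets1.L, myc.L and myc.S. The median difference over the 23 tested was 2.26, 2.32 and 2.89 log2, and over all tested probe sets it was 0.1, 0.09 and 0.08. "Rose" and "fell" stand for a limma test with a Benjamini-Hochberg adjusted p below 0.05 over all tested probe sets. These counts describe the members. The probe sets of foxd3.L and foxd3.S and one of mycn.S read below log2 4 on all GR arrays and so could pass the filter only through injected groups. All 5 injected arrays lay above or below all 5 GR arrays for 14, 16 and 16 of the 23, where 38.8%, 40.7% and 36.4% of all tested probe sets did so.

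**Figure D1:**
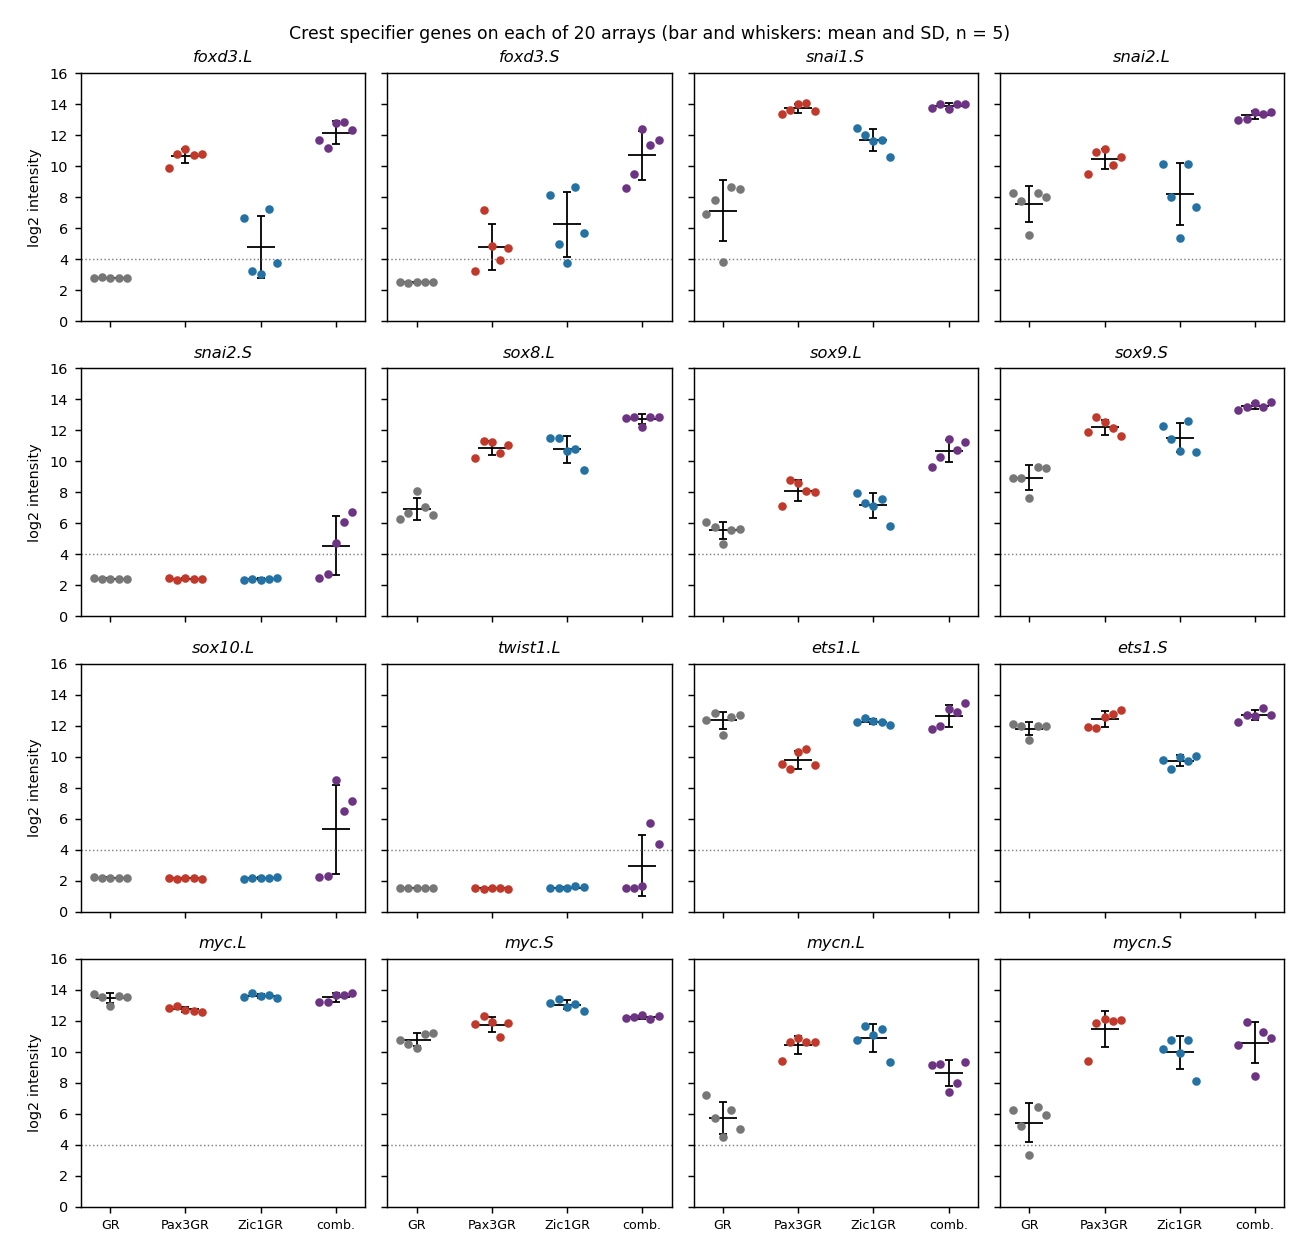
Log2 intensity (vertical axis) of the 16 gene copies on each of the 20 arrays, by injection, with 1 panel per copy (its probe set of highest mean). Points are single arrays in the order of replicates 1 to 5, the bar and whiskers are mean and SD (n = 5), and the dotted line is log2 4. In sox10.L and twist1.L the GR, Pax3GR and Zic1GR points stay near 2 or below while some of the combination points do not.

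The early repressor foxd3 read at background in control caps on both copies. Copy foxd3.L (Xl2.525.1.S1_at) read 2.78, 2.82, 2.76, 2.77 and 2.77 in GR replicates 1 to 5, and 9.88, 10.76, 11.14, 10.71 and 10.82 in Pax3GR. It read 6.63, 3.26, 3.04, 7.22 and 3.74 in Zic1GR and 11.66, 11.20, 12.82, 12.85 and 12.31 in the combination. All GR arrays were at background, all Pax3GR and combination arrays were far above it, and in Zic1GR replicates 1 and 4 alone passed log2 4. The rise was at least 101-fold with Pax3GR (difference 7.88 log2, SE 0.66, adjusted p = 2.95e-08) and at least 288-fold with the combination (adjusted p = 3.45e-09). With Zic1GR the difference was 2.00 log2 (adjusted p = 0.0174). This call was lost without Zic1GR replicate 1 (1.53, adjusted p = 0.0571) or replicate 4 (1.38, adjusted p = 0.0526). No bound on the fold is given here, since Zic1GR replicates 2, 3 and 5 also read below log2 4. With values below log2 4 set to 4 the Zic1GR difference was 1.17 (adjusted p = 0.0866). The combination stood 1.51 log2 above Pax3GR (95% interval 0.13 to 2.89), which did not pass the test (adjusted p = 0.159) although the arrays did not overlap. That test pools the spread of all groups, and the SD was 1.99 in Zic1GR, 0.47 in Pax3GR and 0.73 in the combination. Pax3GR stood 5.88 log2 above Zic1GR (adjusted p = 2.19e-06).

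Copy foxd3.S (Xl2.523.1.S1_at) read 2.48 to 2.55 in GR. Its Pax3GR arrays read 3.24, 7.16, 4.85, 3.94 and 4.70, its Zic1GR arrays 8.17, 4.95, 3.76, 8.69 and 5.7, and its combination arrays 8.62, 9.47, 12.42, 11.37 and 11.66. Single factors gave low and uneven levels, again highest in Zic1GR replicates 1 and 4, and the combination arrays overlapped only with those of Zic1GR. The combination rose by at least 104-fold over GR (difference 8.19 log2, SE 0.91, adjusted p = 1.56e-06), stood 5.93 log2 above Pax3GR (adjusted p = 0.000422) and 4.45 above Zic1GR (adjusted p = 0.00259). With Zic1GR foxd3.S rose by 3.74 log2 (adjusted p = 0.0027), with replicate 3 still below log2 4. The Pax3GR difference of 2.26 was at the edge of the test (adjusted p = 0.0476). It was not called without any 1 of the 5 GR arrays, Pax3GR replicate 2, 3 or 5, Zic1GR replicate 5 or combination replicate 4 or 5 (adjusted p 0.0521 to 0.14), nor with values below log2 4 set to 4 (0.94, adjusted p = 0.393).

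The Snail family gene snai1 rose with every injection. The snai1.S probe set (Xl2.13309.1.S1_at, for which the reference table gives snai1.L as an older name) read 6.92, 7.80, 3.82, 8.65 and 8.52 in GR. It read 13.39, 13.64, 14.04, 14.06 and 13.59 in Pax3GR, 12.48, 11.99, 11.65, 11.70 and 10.59 in Zic1GR, and 13.74, 13.99, 13.68, 14.01 and 14.04 in the combination. No injected array overlapped with GR, Zic1GR lay below Pax3GR on every array, and the combination and Pax3GR overlapped. The gene rose by 6.60 log2 with Pax3GR (SE 0.64, adjusted p = 2.16e-07), 4.54 with Zic1GR (adjusted p = 2.26e-05) and 6.75 with the combination (adjusted p = 2.15e-07). The combination exceeded Pax3GR by 0.15 log2 (95% interval -1.21 to 1.5, adjusted p = 0.926). That interval pools the spread of all groups, and the SD was 1.98 in GR, 0.29 in Pax3GR and 0.17 in the combination. It exceeded Zic1GR by 2.21 (adjusted p = 0.0281), a call lost without any 1 of Zic1GR replicates 3, 4 and 5 or combination replicates 2, 4 and 5 (adjusted p 0.0509 to 0.0598).

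Copy snai2.L (Xl2.3818.1.S1_at), also called slug in older usage and a classical marker of premigratory crest, had signal in control caps. It read 8.30, 7.73, 5.56, 8.25 and 8.01 in GR and 9.5, 10.93, 11.14, 10.10 and 10.59 in Pax3GR. The Zic1GR arrays read 10.13, 8.00, 5.36, 10.13 and 7.38, and the combination arrays 13.01, 13.06, 13.52, 13.39 and 13.49. Zic1GR arrays were scattered around the GR level, Pax3GR arrays lay above GR, and the combination arrays were tight and above every other array. The gene rose by 2.88 log2 with Pax3GR (SE 0.73, adjusted p = 0.00317) and by 5.72 with the combination (adjusted p = 7.46e-06). With Zic1GR the difference was 0.63 (95% interval -0.91 to 2.16, adjusted p = 0.494). The combination stood 2.84 above Pax3GR (adjusted p = 0.0186) and 5.10 above Zic1GR (adjusted p = 8.19e-05). Pax3GR stood 2.25 above Zic1GR (adjusted p = 0.0234), not called without Pax3GR replicate 3 or Zic1GR replicate 3 or 5 (adjusted p 0.0511 to 0.0636).

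The members snai2.S, sox10.L and twist1.L were at background everywhere except on some combination arrays, and were too dim to be tested. Copy snai2.S (Xl2.11972.1.S1_at) read 2.33 to 2.48 on the 15 other arrays and 2.50, 2.76, 4.76, 6.06 and 6.73 in combination replicates 1 to 5. Copy sox10.L (Xl2.1588.1.S1_at), the SoxE gene of later crest, glia and pigment cells, read 2.13 to 2.23 on the 15 other arrays and 2.22, 2.27, 8.46, 6.47 and 7.11 in the combination. Copy twist1.L (Xl2.56708.1.S1_at) read 1.48 to 1.66 on the 15 other arrays and 1.52, 1.52, 1.63, 5.74 and 4.39 in the combination. Combination replicates 3, 4 and 5 held the signal of snai2.S and sox10.L, replicates 4 and 5 that of twist1.L, and replicates 1 and 2 lay near background for each of them. On their probe sets of highest mean foxd3.L, foxd3.S, snai2.L, sox9.L, ets1.L and myc.L split likewise. Each read lower on combination replicates 1 and 2 than on 3, 4 and 5, as did the probe set of both twist1 copies. The copies snai1.S, sox8.L, sox9.S, ets1.S, myc.S, mycn.L and mycn.S did not split so. In a fit over all 32539 probe sets without the filter, the combination stood above GR by 2.15 log2 for snai2.S (adjusted p = 0.0101), 3.13 for sox10.L (adjusted p = 0.0129) and 1.46 for twist1.L (adjusted p = 0.0882). That fit takes the spread as equal in all groups, which it was not. The SD of snai2.S, sox10.L and twist1.L was 1.9, 2.88 and 1.98 in the combination, and at most 0.06, 0.04 and 0.07 in the other groups. These p-values therefore understate the spread of the combination arrays and do not settle a rise. The fourth untested probe set, Xl2.51436.1.S1_at of mycn.L, read 1.71 to 1.77 on all 20 arrays.

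Levels of other gene lists on the combination arrays are given here replicate by replicate. The mean over the 27 neural plate and neuron markers on the array was 6, 6.07, 4.83, 5.68 and 5.15 in combination replicates 1 to 5, and 4.9 to 5.04 in GR. The mean over the 24 mesoderm markers was 4.3, 4.18, 3.4, 3.77 and 3.51 (GR 2.98 to 3.08). Both means were lower on the 3 arrays with sox10.L signal. Some other lists split in the same way, by very little for the border genes. Sox genes outside the SoxE family averaged 6.66, 6.71, 5.64, 6.37 and 6.14 in combination replicates 1 to 5. Endoderm markers averaged 4.52, 4.64, 4.32, 4.44 and 4.33, and neural plate border genes 11.68, 11.71, 11.6, 11.61 and 11.61. Other neural crest genes, at 8.68, 8.83, 8.34, 8.83 and 8.45, did not split so. Nor did crest-inducing signal genes, at 8.62, 8.99, 8.2, 8.89 and 8.59. The placode, pigment and skeletal, Snail-linked, Myc-linked, and endothelial and blood lists did not split so either. The mean over the 24 epidermis markers was 10.69, 10.62, 10.56, 9.47 and 11.6, with no such split. The part of these levels in the result was not tested.

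A probe set annotated to both twist1 copies was kept out of the counts above, since it names 2 symbols, and was added after its values were seen. This probe set (Xl2.879.1.S1_s_at) read 3.84, 3.63, 2.30, 3.70 and 3.47 in GR and 7.46, 7.45, 7.48, 8.43 and 7.98 in Pax3GR. It read 9.53, 8.21, 8.64, 10.25 and 10.57 in Zic1GR and 9.96, 9.70, 11.24, 11.58 and 12.19 in the combination. Here every injected array was above background and above all GR arrays. All GR arrays read below log2 4, so this probe set could pass the filter only through injected groups. The rise was at least 13.6-fold with Pax3GR (difference 4.37 log2, SE 0.5, adjusted p = 1.55e-06), at least 43.4-fold with Zic1GR (adjusted p = 4.08e-08) and at least 122-fold with the combination (adjusted p = 1.76e-09). Zic1GR stood above Pax3GR, since Pax3GR minus Zic1GR was -1.68 (adjusted p = 0.0149), the reverse of the order for foxd3.L, snai1.S and snai2.L.

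In the SoxE family every tested copy rose with each factor and rose furthest with both. All 3 probe sets of sox8.L, the SoxE gene expressed earliest in Xenopus crest, gave the same calls in the 6 comparisons between groups. The one with the highest mean (Xl2.53219.3.A1_at) read 6.27, 6.64, 8.09, 7.09 and 6.51 in GR and 10.22, 11.29, 11.25, 10.55 and 11.07 in Pax3GR. It read 11.51, 11.52, 10.64, 10.78 and 9.44 in Zic1GR and 12.81, 12.89, 12.19, 12.88 and 12.88 in the combination. The single factors overlapped with each other, and the combination lay above both and above GR on every array. The gene rose by 3.95 log2 with Pax3GR (SE 0.38, adjusted p = 1.86e-07), 3.85 with Zic1GR (adjusted p = 3.82e-07) and 5.81 with the combination (adjusted p = 1.4e-09). Pax3GR and Zic1GR differed by 0.10 (95% interval -0.70 to 0.90, adjusted p = 0.864). The combination exceeded Pax3GR by 1.85 (adjusted p = 0.00436) and Zic1GR by 1.95 (adjusted p = 0.00165).

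Copy sox9.L (Xl2.28992.1.S1_at), of a gene needed for crest formation and later for cartilage, read 6.09, 5.77, 4.67, 5.56 and 5.66 in GR. It read 7.13, 8.80, 8.61, 8.07 and 8.00 in Pax3GR, 7.99, 7.31, 7.12, 7.59 and 5.84 in Zic1GR, and 9.66, 10.30, 11.44, 10.76 and 11.24 in the combination. The combination lay above every other array, and Zic1GR replicate 5 was within the GR range. The differences from GR were 2.57 (SE 0.42, adjusted p = 6.74e-05), 1.62 (adjusted p = 0.00393) and 5.13 log2 (adjusted p = 2.66e-08). The combination exceeded Pax3GR by 2.56 (adjusted p = 0.00071) and Zic1GR by 3.51 (adjusted p = 8.88e-06). Pax3GR and Zic1GR differed by 0.95, not called (adjusted p = 0.0878), and called without Pax3GR replicate 1 (adjusted p = 0.0332).

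Copy sox9.S (Xl2.1690.1.S1_at) followed the same order. It read 8.96, 8.95, 7.65, 9.62 and 9.56 in GR and 11.87, 12.84, 12.55, 12.15 and 11.64 in Pax3GR. It read 12.31, 11.47, 10.68, 12.63 and 10.58 in Zic1GR and 13.32, 13.54, 13.75, 13.54 and 13.82 in the combination. Single factors overlapped, GR lay below all injected arrays and the combination above all others. The differences from GR were 3.26 (SE 0.4, adjusted p = 3.84e-06), 2.59 (adjusted p = 6.07e-05) and 4.65 log2 (adjusted p = 6.53e-08). The combination exceeded Zic1GR by 2.06 (adjusted p = 0.00178) and Pax3GR by 1.39 (adjusted p = 0.0362). The latter call was lost without any 1 of Pax3GR replicates 1, 3, 4 and 5 or combination replicates 2, 3, 4 and 5 (adjusted p 0.0501 to 0.098).

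Both ets1 copies were strongly expressed in control caps, and on their probe sets of highest mean each single factor lowered a different copy. Copy ets1.L (Xl2.142.1.S1_at) read 12.33, 12.81, 11.42, 12.54 and 12.66 in GR and 9.5, 9.21, 10.28, 10.47 and 9.45 in Pax3GR. It read 12.26, 12.47, 12.31, 12.21 and 12.06 in Zic1GR and 11.77, 11.99, 13.07, 12.88 and 13.44 in the combination. The Pax3GR arrays lay below all others, and the remaining groups overlapped. The gene fell by 2.57 log2 with Pax3GR (SE 0.33, adjusted p = 5.23e-06). The differences from GR were -0.09 with Zic1GR (95% interval -0.78 to 0.60, adjusted p = 0.84) and 0.28 with the combination (95% interval -0.41 to 0.97, adjusted p = 0.513). The combination stood 2.85 log2 above Pax3GR (adjusted p = 2.07e-05).

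Other ets1.L probe sets did not all follow. On Xl2.142.2.S1_a_at ets1.L fell by 4.49 with Pax3GR (adjusted p = 2.57e-05). Its Pax3GR mean was 3.73, below background, so the size of that fall is uncertain. On Xl2.142.2.A1_at the Pax3GR arrays read 4.24, 5.27, 7.88, 8.38 and 8.57 against 6.44 to 8.68 in GR, which did not pass the test (-1.02, adjusted p = 0.311). There the Zic1GR difference was -1.71 (adjusted p = 0.0837), called without Pax3GR replicate 1 (adjusted p = 0.0455), and the combination stood 2.36 above Zic1GR (adjusted p = 0.0621), called without Pax3GR replicate 1 or combination replicate 1 (adjusted p 0.0159 to 0.0279).

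Copy ets1.S (Xl2.1148.1.S1_at) read 12.08, 11.95, 11.09, 11.96 and 11.97 in GR and 11.89, 11.84, 12.53, 12.74 and 12.99 in Pax3GR. It read 9.80, 9.21, 9.98, 9.70 and 10.04 in Zic1GR and 12.25, 12.70, 12.59, 13.11 and 12.70 in the combination. Here the Zic1GR arrays lay below all others, and the combination arrays above all GR arrays. The gene fell by 2.06 log2 with Zic1GR (SE 0.25, adjusted p = 3.67e-06) and rose by 0.86 with the combination (adjusted p = 0.00921). The latter call was lost without the array of each group that was least like its group, among them GR replicate 3, which was the low GR array here (0.57, adjusted p = 0.0532). The Pax3GR difference was 0.59 (adjusted p = 0.0559), called without Pax3GR replicate 1 or 2 or Zic1GR replicate 2 (adjusted p 0.0235 to 0.0484). The combination exceeded Zic1GR by 2.92 (adjusted p = 1.23e-07).

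Ets1 also marks endothelium, so vascular and blood markers were read beside it. Their list shares gata2 with the epidermis markers. Of 13 such gene copies on the array, 8 in GR caps, 8 with Pax3GR, 7 with Zic1GR and 9 with both reached log2 4 on no array of the group. Of the 5 tested none rose with any injection, and 3, 1 and 2 fell (60%, 20% and 40% called). The array means of this list were 3.68 to 4.13 (GR), 3.37 to 3.9 (Pax3GR), 3.56 to 4.2 (Zic1GR) and 3.38 to 3.85 (combination). Of the defining genes tal1 and gata1 read at most 2.2 and 2.11 on any array, while fli1.S reached 4.1 in Pax3GR and lmo2.S 4.13 in Zic1GR.

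In the Myc family the myc copies differed from each other. Copy myc.L (Xl2.1155.2.S1_x_at) was bright in all groups, at 13.73, 13.54, 12.96, 13.60 and 13.56 in GR and 12.84, 12.96, 12.70, 12.63 and 12.59 in Pax3GR. It read 13.51, 13.81, 13.59, 13.65 and 13.44 in Zic1GR and 13.21, 13.20, 13.66, 13.66 and 13.79 in the combination. Pax3GR was lowest, touching only GR replicate 3. The gene fell by 0.73 log2 with Pax3GR (SE 0.15, adjusted p = 0.000565). With Zic1GR it differed by 0.12 (95% interval -0.19 to 0.44, adjusted p = 0.516) and with the combination by 0.02 (95% interval -0.29 to 0.34, adjusted p = 0.908). The other myc.L probe set gave -0.72, 0.15 and 0.14.

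Copy myc.S moved the other way. The probe set Xl2.826.2.S1_x_at read 10.79, 10.50, 10.23, 11.14 and 11.21 in GR and 11.77, 12.29, 11.92, 10.98 and 11.83 in Pax3GR. It read 13.16, 13.38, 12.92, 13.06 and 12.61 in Zic1GR and 12.15, 12.23, 12.35, 12.12 and 12.31 in the combination. Zic1GR lay above every other array, the combination lay between Zic1GR and GR, and Pax3GR replicate 4 was within the GR range. The gene rose by 0.99 log2 with Pax3GR (SE 0.22, adjusted p = 0.0012), 2.25 with Zic1GR (adjusted p = 3.55e-07) and 1.46 with the combination (adjusted p = 4.37e-05). The combination was lower than Zic1GR, at -0.79 (adjusted p = 0.0221), not called without Zic1GR replicate 1 or 2 (adjusted p 0.053 to 0.0657).

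All 5 myc.S probe sets rose with Zic1GR, by 2.15 to 3.87 log2, and 3 of the 5 rose with Pax3GR. On Xl2.826.4.A1_at the differences were 0.02 with Pax3GR (adjusted p = 0.982), 3.43 with Zic1GR (adjusted p = 0.000289) and 0.91 with the combination (adjusted p = 0.256). On Xl2.826.4.S1_a_at they were 0.80 (adjusted p = 0.319), 3.87 (adjusted p = 1e-04) and 1.63 (adjusted p = 0.0466). That last call was lost without any 1 of GR replicates 1 to 3, Zic1GR replicates 2 to 4 and combination replicates 2 to 5 (adjusted p 0.0502 to 0.129). The suffix _x_at marks probe sets that may bind other transcripts too, so the share of each myc copy in these values is uncertain.

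The 3 tested mycn probe sets rose with each injection. For mycn.S, Xl2.21947.1.A1_s_at read 6.22, 5.24, 3.34, 6.44 and 5.91 in GR and 9.42, 11.84, 12.13, 11.98 and 12.03 in Pax3GR. It read 10.18, 10.78, 9.94, 10.77 and 8.13 in Zic1GR and 10.41, 11.92, 8.45, 11.30 and 10.89 in the combination. The injected groups overlapped and none overlapped with GR, with replicate 1 low in Pax3GR and replicate 3 low in the combination. The gene rose by 6.05 log2 with Pax3GR (SE 0.73, adjusted p = 2.76e-06), 4.53 with Zic1GR (adjusted p = 7.92e-05) and 5.17 with the combination (adjusted p = 2.23e-05). Pax3GR exceeded Zic1GR by 1.52 (adjusted p = 0.119), called without Pax3GR replicate 1 (adjusted p = 0.0316).

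The second mycn.S probe set, Xl2.434.1.S1_at, read 2.41 to 3.31 in GR and 7.41, 10.45, 10.93, 10.91 and 10.90 in Pax3GR. It read 7.14, 5.63, 5.03, 7.91 and 4.45 in Zic1GR and 9.15, 10.93, 6.43, 10.18 and 9.88 in the combination. Its Zic1GR arrays were again highest in replicates 1 and 4. It rose by at least 69.6-fold with Pax3GR (difference 7.32 log2, SE 0.83, adjusted p = 1.4e-06), at least 4.09-fold with Zic1GR (adjusted p = 0.00385) and at least 39.8-fold with the combination (adjusted p = 7.43e-06). On this probe set Pax3GR exceeded Zic1GR by 4.09 log2 (adjusted p = 0.001).

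For mycn.L, Xl2.21947.1.A1_x_at read 7.22, 5.7, 4.53, 6.22 and 5.04 in GR and 9.43, 10.61, 10.88, 10.60 and 10.63 in Pax3GR. It read 10.78, 11.68, 11.11, 11.50 and 9.35 in Zic1GR and 9.15, 9.20, 7.43, 8.00 and 9.37 in the combination. The combination lay below Pax3GR on every array and above GR on every array. The rise was 4.69 log2 with Pax3GR (SE 0.53, adjusted p = 1.23e-06), 5.14 with Zic1GR (adjusted p = 6.14e-07) and 2.89 with the combination (adjusted p = 0.000279). The combination was lower than Zic1GR (difference -2.25, adjusted p = 0.00721) and than Pax3GR (difference -1.80, adjusted p = 0.037), the latter not called without any 1 of Pax3GR replicates 2 to 5 or combination replicates 3 and 4 (adjusted p 0.06 to 0.108). Its name shares a design cluster with the first mycn.S probe set, so which mycn copy it reads is uncertain.

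**Figure D2:**
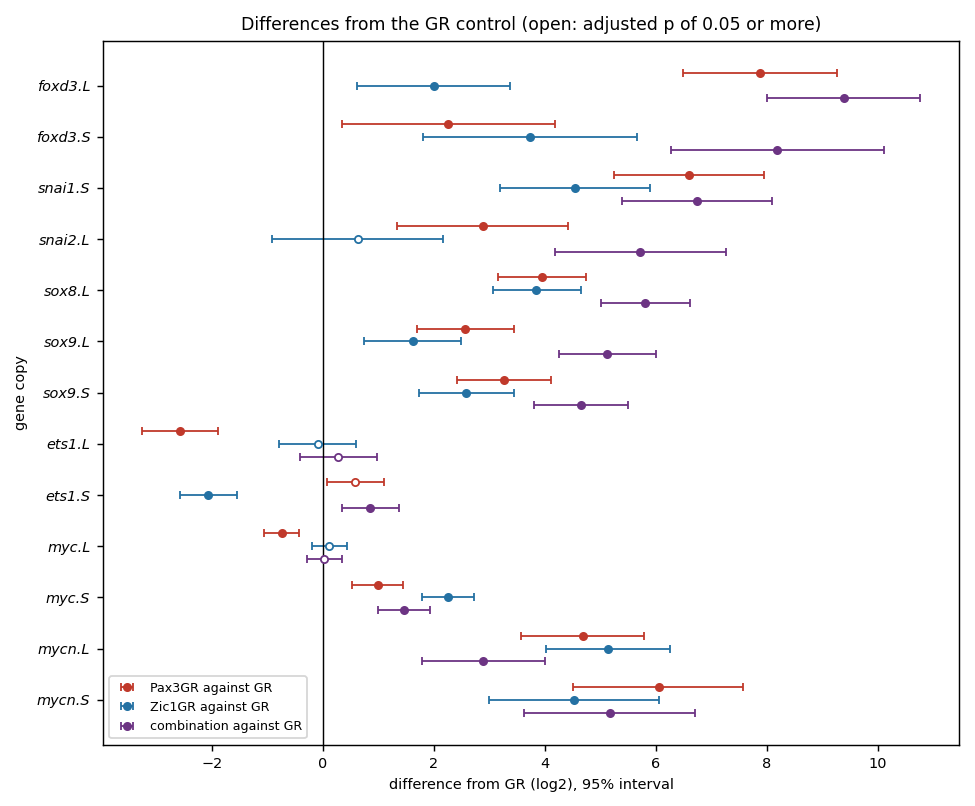
Difference from GR in log2 intensity (horizontal axis) with 95% interval from limma for the 13 tested gene copies, 1 probe set per copy, chosen by highest mean. Red is Pax3GR, blue Zic1GR and purple the combination, and open points did not pass the adjusted p of 0.05. The ets1.L and ets1.S rows show a fall with Pax3GR (-2.57) and with Zic1GR (-2.06) respectively.

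The combination was compared with each single factor to ask where both together gave another level than either. Against Pax3GR, 11 of the 23 tested probe sets were higher and 1 lower, where 10.3% of all tested probe sets were called, 4.28% higher and 5.98% lower. The 7 gene copies that were higher were foxd3.S, snai2.L, sox8.L, sox9.L, sox9.S, ets1.L and myc.L. The 1 lower copy was mycn.L. Against Zic1GR, 11 were higher and 6 lower, where 13.3% of all tested probe sets were called, 7.05% higher and 6.25% lower. The 9 higher copies were foxd3.L, foxd3.S, snai1.S, snai2.L, sox8.L, sox9.L, sox9.S, ets1.S and mycn.S, and the 2 lower ones were myc.S and mycn.L. The median over the 23 was 0.89 log2 against Pax3GR and 1.85 against Zic1GR, and over all tested probe sets 0.01 and -0.02. Arrays did not overlap for 13 and 12 of the 23, where 7.41% and 10.8% of all tested probe sets did not. Hence foxd3.S, snai2.L, sox8.L, sox9.L and sox9.S were called higher with both factors than with either one. The mycn.S call against Zic1GR rests on Xl2.434.1.S1_at (3.28, adjusted p = 0.0125), while Xl2.21947.1.A1_s_at gave 0.64 (adjusted p = 0.637).

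Pax3GR and Zic1GR were compared directly. Pax3GR was higher for 5 and lower for 9 of the 23 tested probe sets, where 34.3% of all tested probe sets were called, 17.3% higher and 17% lower, and 12 of the 23 did not overlap (23.3% of all tested). Copies higher with Pax3GR were foxd3.L, snai1.S, snai2.L, ets1.S and mycn.S. Copies higher with Zic1GR were ets1.L, myc.L and myc.S. No sox8 or sox9 probe set was called. The median difference over the 23 was -0.20 log2, and -0.04 over all tested probe sets.

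Ordered by group mean, the combination was highest for 9 of the 13 tested gene copies, Zic1GR for 3 (myc.L, myc.S and mycn.L) and Pax3GR for 1 (mycn.S). GR was lowest for 10 of the 13, Pax3GR for 2 (ets1.L and myc.L) and Zic1GR for 1 (ets1.S). The order over all tested probe sets was not computed, so these counts only describe the members. Neighbours in the order of a gene copy often did not differ beyond their spread. At the top, the combination and the next group were not separated by the test for foxd3.L (Pax3GR next, adjusted p = 0.159), snai1.S (Pax3GR next, 0.926), ets1.L (GR next, 0.513) and ets1.S (Pax3GR next, 0.551). Nor was the top group separated from the next for myc.L (combination next, 0.735), mycn.L (Pax3GR next, 0.537) and mycn.S (combination next, 0.5). Zic1GR and Pax3GR were neighbours not separated for foxd3.S (adjusted p = 0.229), sox8.L (0.864), sox9.L (0.0878) and sox9.S (0.214).

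Whether the factors acted additively was tested on the log2 scale, as the level in the combination minus the level expected if both single differences from GR were summed. Of the 23 tested probe sets 6 lay above and 12 below that sum, where 36.6% of all tested probe sets were called, 17% above and 19.6% below. The ets1 copies lay above it. For ets1.L the sum came to 9.69 and the combination mean to 12.63, a deviation of 2.94 (adjusted p = 0.000152), and for ets1.S the sum was 10.33 and the mean 12.67 (2.33, adjusted p = 9.11e-05). The fall seen with Pax3GR alone on ets1.L, and with Zic1GR alone on ets1.S, was not seen in the combination. Copy myc.L deviated by 0.64 (adjusted p = 0.0266), lost without combination replicate 5 (adjusted p = 0.0545).

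Below the sum lay snai1.S (-4.39), sox8.L (-2), myc.S (-1.78), mycn.S (-5.41) and mycn.L (-6.94), with adjusted p of 0.00151, 0.00827, 0.000407, 0.000806 and 2.36e-06. For snai1.S, mycn.S and mycn.L the sum was 18.28, 16.01 and 15.57, above the highest value of any probe set in the table (15.39). That value is the highest seen here, and whether higher levels could be measured was not tested. On the second mycn.S probe set, Xl2.434.1.S1_at, the sum was 13.36, within the range of the table. Its combination mean was 9.31 (-4.04, adjusted p = 0.0132), and with values below log2 4 set to 4 the deviation was -2.84 (adjusted p = 0.0639). For sox8.L (14.73 against a mean of 12.73) and myc.S (14.01 against 12.23) the sum lay within the range of the table. Not called were foxd3.L (-0.49, adjusted p = 0.705), foxd3.S (2.19, 0.194), snai2.L (2.22, 0.102), sox9.L (0.94, 0.221) and sox9.S (-1.20, 0.109). Copy snai2.L was called without Zic1GR replicate 1 or 4 or GR replicate 3 (adjusted p 0.0418 to 0.0464), and sox9.S without Zic1GR replicate 5 (adjusted p = 0.0471). With values below log2 4 set to 4, foxd3.S stood 3.46 above the sum (adjusted p = 0.036).

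**Figure D3:**
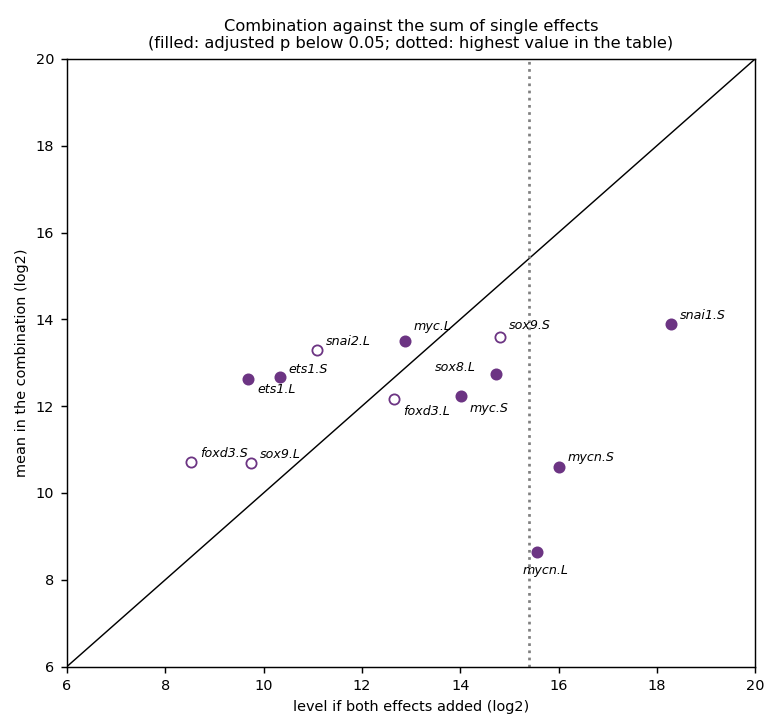
Mean log2 level in the combination (vertical axis) against the level if both single differences from GR were added (horizontal axis) for the 13 tested gene copies. The diagonal marks equality, filled points passed the adjusted p of 0.05 in limma, and the dotted line is 15.39, the highest value in the table. The ets1 copies and myc.L lie above the diagonal, while snai1.S, mycn.S and mycn.L lie far below it and to the right of the dotted line.

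Both copies were tested for 5 genes (snai2.S was too dim), and their changes from GR were compared by the difference L minus S on each array. This comparison was added after the values were seen. It used a two-sided exact permutation test over 252 splits, whose smallest possible p is 0.00794, adjusted over 15 tests, with values below log2 4 set to 4. All 3 comparisons of a gene share the GR arrays. Each copy was read on its probe set of highest mean. For ets1 these probe sets moved apart in opposite ways, with L changing by -3.16 relative to S with Pax3GR and by 1.97 with Zic1GR (adjusted exact p = 0.0149 for both). Another ets1.L probe set, Xl2.142.2.A1_at, differed from GR by -1.02 with Pax3GR and -1.71 with Zic1GR, neither called by limma. The ets1.S differences were 0.59 and -2.06, so the split between copies was not seen on every ets1.L probe set. With the combination the ets1 value was -0.58 (adjusted exact p = 0.119).

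For foxd3 L minus S was 5.72 with Pax3GR and 1.46 with the combination (adjusted exact p = 0.0149 for both). With Zic1GR it was -1.13 (adjusted exact p = 0.0649). Both foxd3 copies read below background on all GR arrays and were set to the same value there. The foxd3 values therefore only compare the levels of the probe sets in injected caps. Both changes are lower bounds, so the test cannot decide which foxd3 copy changed more. For myc the L change lay below the S change in all 3 comparisons, with L minus S at -1.72, -2.13 and -1.44 (adjusted exact p = 0.0149 each). With Pax3GR the myc changes had opposite signs (L -0.73, S 0.99), so that test does not show which changed more. Both were read on _x_at probe sets, with the doubt given above. For mycn L minus S was -1.23 with Pax3GR (adjusted exact p = 0.0397), 0.74 with Zic1GR (adjusted exact p = 0.0695) and -2.15 with the combination (adjusted exact p = 0.0149), with the doubt about its copies given above. The sox9 copies were not called different, at -0.69, -0.97 and 0.48 (adjusted exact p = 0.0733, 0.0596 and 0.19).

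**Figure D4:**
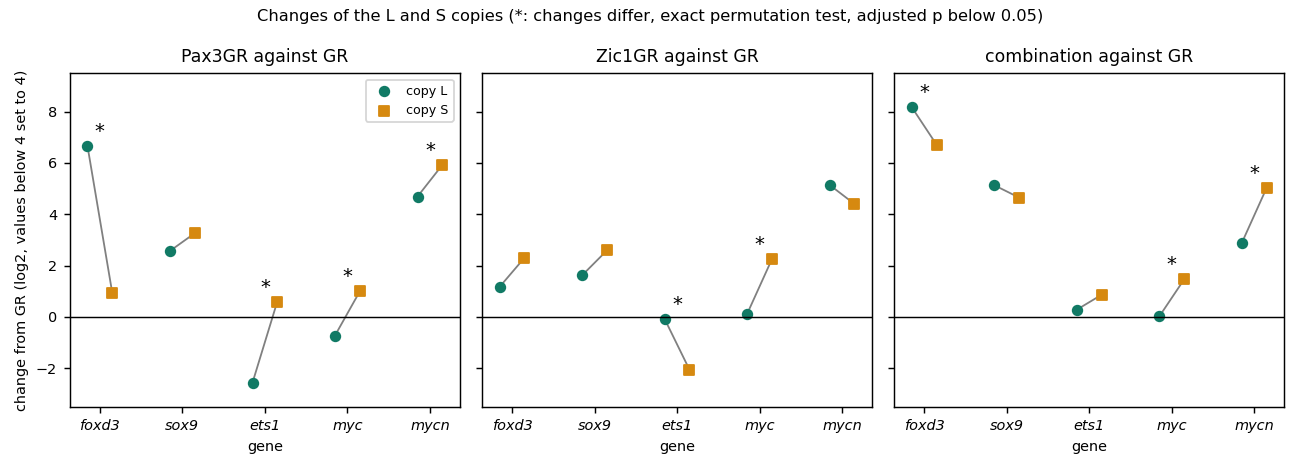
Change from GR in log2 intensity (vertical axis, values below 4 set to 4) of the L copy (green circles) and the S copy (orange squares) of 5 genes, 1 panel per injection. Lines join the copies of a gene, and an asterisk marks an adjusted exact permutation p below 0.05. Both foxd3 copies were below 4 in GR, so the sizes of their changes are uncertain and do not show which copy changed more. For ets1 the L copy, on its probe set of highest mean, is the lower one with Pax3GR and the S copy with Zic1GR.

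Probe sets of other genes whose pattern over the 20 arrays was most like that of a specifier were listed by Pearson correlation among 10964 candidates, as a description. The 20 arrays fall into 4 groups, so group differences set most of these values. Closest to foxd3.L were tfap2e.L (r = 0.976), an AP-2 transcription factor gene, pax3.L on Xl2Affx.25.1.S1_at (0.973) and cybb.L (0.968), an oxidase subunit gene. Closest to snai2.L were LOC431899 (0.916), tfap2e.L (0.909) and nid2.L (0.908), the gene of a basement membrane protein. Closest to sox8.L were zswim4.S (0.967), slit2.S (0.963), a secreted guidance cue, and tcf7.S (0.959), a Wnt pathway transcription factor. Closest to sox9.L were nid2.L (0.952), rab11fip5.L (0.949) and cenpp.L (0.938).

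Lists of related genes were read against the share called over all tested probe sets, 50.3% with Pax3GR, 51.4% with Zic1GR and 44.8% with the combination. All 3 comparisons share the GR arrays. The lists share genes and are not separate readings. Among these, sox2 and sox3 are on the Sox and neural plate lists, dlx3 and tfap2a on the border and epidermis lists, and foxi1 on the placode and epidermis lists. Of 27 neural plate border gene copies on the array 26 were tested, of which 17 rose and 2 fell with Pax3GR, 17 rose and 6 fell with Zic1GR, and 19 rose and 2 fell with the combination, with medians of 1.30, 1.14 and 1.27 log2. That is 73.1%, 88.5% and 80.8% of the tested copies. The list includes the injected genes. The border gene zic2.L rose from 4.48 to 12.86, 11.35 and 12.87 (adjusted p = 3.26e-12, 6.62e-11 and 3.89e-12). The repressor gene znf703.S split the factors, as it rose by 4.08 with Pax3GR (adjusted p = 1.49e-11) and 4.90 with the combination (adjusted p = 1.27e-12) and fell by 0.82 with Zic1GR (adjusted p = 0.00191).

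Of 28 copies of crest-inducing signal genes 23 were tested, of which 17 rose and 3 fell with Pax3GR, 16 rose and 1 fell with Zic1GR, and 17 rose and 4 fell with the combination (medians 3.69, 1.68 and 2.72), which is 87%, 73.9% and 91.3% of the tested copies. The Wnt ligand wnt8a.L rose by at least 592-fold with Pax3GR, 17.8-fold with Zic1GR and 335-fold with the combination (adjusted p = 5.68e-13, 3.38e-09 and 1.91e-12). The receptor fgfr4.L rose by 4.58, 5.01 and 4.97 log2 (adjusted p = 1.49e-11, 4.73e-12 and 5.18e-12). The BMP antagonist nog.L rose by at least 69-fold with Pax3GR, 38.3-fold with Zic1GR and 61.6-fold with the combination (adjusted p = 1.78e-11, 1.06e-10 and 2.57e-11).

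Of 38 copies of other neural crest genes 33 were tested, of which 14 rose and 2 fell with Pax3GR, 19 rose and 8 fell with Zic1GR, and 15 rose and 8 fell with the combination (medians 0.74, 0.74 and 0.96). That is 48.5% called with Pax3GR, near the share over all probe sets, 81.8% with Zic1GR and 69.7% with the combination. The genes named next are those with the smallest adjusted p in the combination, while id3.L, the brightest gene not called there, read 13.42 in GR and 13.50 in the combination. The Wnt receptor ror2.L rose by 5.89, 5.21 and 6.15 log2, and the matrix protease mmp14.L by 6.48, 6.2 and 6.68. The chemokine receptor ackr3.L rose by at least 161-fold with Pax3GR, 40.7-fold with Zic1GR and 112-fold with the combination. Adjusted p for these 3 genes was at most 3.47e-10. Of 6 copies of pigment and skeletal derivative genes, 5 of them tested, 2, 1 and 1 rose and 1, 2 and 1 fell (60%, 60% and 40% called). Among them pmel.S, a melanosome gene, fell by 0.59, 1.03 and 0.82 (adjusted p = 0.0148, 0.000253 and 0.00194).

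Of 25 copies of adhesion genes linked to Snail factors 24 were tested, of which 8 rose and 7 fell with Pax3GR, 9 rose and 7 fell with Zic1GR, and 10 rose and 8 fell with the combination (medians 0.22, -0.05 and 0.21). That is 62.5%, 66.7% and 75% of the tested copies. The called genes named next had the smallest adjusted p in the combination, and both rose. None of the copies that fell is named here, so which adhesion genes fell is not shown. N-cadherin, cdh2.L, rose by 4.38, 2.23 and 3.98 log2 (adjusted p = 1.84e-10, 1.62e-06 and 7.81e-10), and vimentin, vim.S, by 6.51, 2.63 and 5.61 (adjusted p = 2.5e-08, 0.000635 and 2.18e-07). The integrin itgb1.L was not called, at 0.05, 0.20 and 0.15.

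Of 29 copies of Myc network and Myc-linked growth genes 25 were tested, of which 7 rose and 3 fell with Pax3GR, 16 rose and 3 fell with Zic1GR, and 10 rose and 3 fell with the combination (medians 0.17, 0.30 and 0.27). That is 40% called with Pax3GR, below the share over all probe sets, 76% with Zic1GR and 52% with the combination. The family member mycl.S rose by 2.26, 2.50 and 1.88 (adjusted p = 2.52e-06, 1.18e-06 and 2.67e-05). The Myc antagonist mxi1.L fell by 2.17, 1.40 and 3.47 (adjusted p = 0.00372, 0.0453 and 9.16e-05). Nucleophosmin, npm1.L, was bright and not called, at 0.12, 0.11 and 0.16.

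Among Sox genes outside the SoxE family 13 copies were on the array and 8 were tested, of which 6 rose and 0 fell with Pax3GR, 6 rose and 1 fell with Zic1GR, and 4 rose and 1 fell with the combination (medians 2.79, 2.35 and 0.95), or 75%, 87.5% and 62.5% called. Against Pax3GR 0 of them were higher in the combination and 4 lower. In the combination sox15.L, sox13.S and sox11.S rose by 1.20, 3.48 and 3.91 log2 over GR (adjusted p = 9.41e-09, 1.01e-08 and 1.25e-07), and none of them was called different from Pax3GR. The neural plate gene sox3.S, the brightest not called, had group means of 10.76 (GR), 13.20 (Pax3GR), 13.18 (Zic1GR) and 10.17 (combination), and in the combination the difference from GR was -0.59 (adjusted p = 0.304). Of 27 neural plate and neuron copies, 20 of them tested, 15, 15 and 7 rose and 1, 0 and 5 fell (80%, 75% and 60% called), with array means of 6.81 to 7.89 in Pax3GR, 6.44 to 7.37 in Zic1GR and 4.83 to 6.07 in the combination.

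Markers of other tissues were called at shares above and below those over all probe sets. Of 24 epidermis copies 1, 2 and 2 rose and 21, 8 and 11 fell (91.7%, 41.7% and 54.2% called), and their array mean was 12.36 to 12.59 (GR), 8.58 to 11.22 (Pax3GR), 9.82 to 11.51 (Zic1GR) and 9.47 to 11.6 (combination). The highest Pax3GR mean was that of replicate 1, the array lowest for foxd3.L, foxd3.S, snai1.S, snai2.L, sox8.L, sox9.L, mycn.L and mycn.S in its group. On their probe sets of highest mean sox9.S, ets1.L, ets1.S, myc.L and myc.S were not lowest there. Replicate 2 had the next highest epidermis mean in Pax3GR (10.03) and was the highest Pax3GR array for foxd3.S (7.16), sox9.L (8.80) and sox9.S (12.84). In Zic1GR the highest epidermis means were those of replicates 3 and 5 (11.38 and 11.51). On probe sets of highest mean these were the lowest Zic1GR arrays for snai1.S, snai2.L, sox8.L, sox9.L, sox9.S, myc.S and mycn.S. They were not so for foxd3.L, foxd3.S, ets1.L, ets1.S, myc.L and mycn.L. Of 24 mesoderm copies, 11 of them tested, 6, 4 and 5 rose and 1, 0 and 1 fell (63.6%, 36.4% and 54.5% called), and 20 of them in GR and 12 to 14 in the injected groups reached log2 4 on no array. The muscle regulator myf5.L reached 11.17 in Pax3GR and 9.18 in the combination, while tbxt, actc1 and myod1.S read at most 5.42, 4.4 and 5.58. Of 16 placode copies, 11 of them tested, 3, 6 and 2 rose and 4, 1 and 4 fell (63.6%, 63.6% and 54.5% called), and of 16 endoderm copies, 9 of them tested, 0, 1 and 1 rose and 5, 5 and 5 fell (55.6%, 66.7% and 66.7% called), with sox17a at most 1.91. The part of these levels in the changes of the specifiers was not tested.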

How the data were processed

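The authors deposited 1 table of log2 intensities of 32635 probe sets on 20 arrays; GCRMA and Partek are named in the submitters' processing notes, with no role given, and the table was used without further normalization. Removing 96 control probe sets left 32539, of which 15495 carry 1 gene symbol, 279 several and 16765 none. The platform annotation gave the symbols, and all 27 member probe sets matched the RefSeq gene table by gene ID. The tests used the 20519 probe sets that reached log2 4 on 5 or more of the 20 arrays. All 4 groups were fitted together with limma (version 3.58.1, lmFit and eBayes, R 4.3.3), and p-values were Benjamini-Hochberg adjusted over all tested probe sets, with a threshold of 0.05. In a balanced fit 1 standard error (SE) holds for every difference between groups of a probe set. A fold against a group below background is given as "at least", against the higher of its own level and log2 4 per array. Any array of the other group below log2 4 was set to 4 too, and the fold is then not a strict bound. A probe set given with "at least" could pass the filter only through its groups above background. This holds for wnt8a.L, nog.L, ackr3.L, tbx1.L, pitx1.L, cer1.S and foxa1.L too. The procedure was tested on simulated data.

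Members and gene lists were chosen with earlier results of these data known. Each gene copy is shown by the probe set of highest mean over 20 arrays, with any other probe set whose call differs in direction. For likeness the 3 highest correlations are named for foxd3.L, snai2.L, sox8.L and sox9.L. Each list is illustrated from the 3 called genes with the smallest adjusted p for the combination and the brightest uncalled gene. The genes myf5.L, myod1.S, tbxt, actc1, tal1, gata1, fli1.S, lmo2.S, sox17a, krt70.S, krt12.4.S, tp63.L and tp63.S were named as defining markers after their values were seen. No 2 arrays held the same values (highest r 0.9817). Same-numbered arrays of different groups did not deviate together (mean r 0.042 over 30 pairs), so replicate numbers were not taken as pairs.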

Additional observations from a re-analysis of the deposited data

Results flagged for a closer look

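Within groups of 5 arrays, 9 of 92 group-by-probe-set sets held an array far from the other 4 by Dixon's criterion (0.71). The nominal rate is about 1 in 20 for independent sets. These sets reuse the same 20 arrays and hold several probe sets of the same gene. The share over all tested probe sets was not computed, so the count is not read as an excess. GR replicate 3 was the low array for snai2.L (5.56, next 7.73), ets1.S (11.09, next 11.95) and both myc.L probe sets (12.03 and 12.96). Pax3GR replicate 1 was the low array for both mycn.S probe sets (9.42 and 7.41) and for mycn.L (9.43). Combination replicate 3 was the low array for sox8.L on Xl2.53219.3.A1_at (12.19) and on Xl2.29789.1.S1_at (10, next 11). GR replicate 3 and Pax3GR replicate 1 also correlated least with the rest of their groups (mean r 0.963 and 0.881).

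The effect of Zic1GR in caps that also received Pax3GR differed from its effect in caps that did not for 18 of 23 probe sets, which is the departure from additivity described above, tested as an interaction in limma. It was positive for ets1.S (2.33, adjusted p = 9.11e-05), for all 3 ets1.L probe sets (2.94, 3.37 and 4.60) and for both of myc.L (0.71 and 0.64). The ets1.L value of 4.60 (Xl2.142.2.S1_a_at) has a sum of 2.92, below background, so its size is uncertain. Its call was kept with values below log2 4 set to 4. The ets1.L value of 3.37 was not called without Pax3GR replicate 2 or combination replicate 3 or 5 (adjusted p 0.0513 to 0.0541), and the myc.L value of 0.71 was not called without combination replicate 5 or GR replicate 1 or 4 (adjusted p 0.0505 to 0.0566). It was negative for snai1.S (-4.39), mycn.S (-5.41 and -4.04), mycn.L (-6.94), sox8.L (-1.86, -2 and -2.38) and myc.S (-1.78, -1.78, -1.79, -2.54 and -3.04). The sox8.L value of -1.86 was not called without any 1 of Pax3GR replicates 2, 3 and 5, Zic1GR replicates 1 and 2, combination replicate 3 and GR replicates 1, 2 and 5 (adjusted p 0.0535 to 0.0682), and the myc.S value of -2.54 without any 1 of Pax3GR replicates 2, 3 and 5, Zic1GR replicates 1, 2 and 3, combination replicates 1 and 3 and GR replicates 1 and 3 (adjusted p 0.0506 to 0.0689). The mycn.S value of -4.04 became -2.84 with values below log2 4 set to 4 (adjusted p = 0.0639).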

How the results depend on the processing

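Over 161 results (23 probe sets in 7 comparisons) no direction of a called difference was reversed under any alternative run. Leaving out each array in turn kept the call in 139 of the 161 and changed it in 22. The number of the 23 called then ranged from 18 to 20 for Pax3GR against GR, 16 to 18 for Zic1GR, 16 to 17 for the combination, 10 to 12 for the combination against Pax3GR, 14 to 18 against Zic1GR, 13 to 16 for Pax3GR against Zic1GR and 15 to 19 for non-additivity. Under the other alternatives the same counts were 15 to 20, 16 to 18, 15 to 18, 10 to 12, 14 to 19, 12 to 18 and 16 to 18. Calls changed in 0 results with arrays centred or a filter at log2 6, 1 with trend and robust settings, 2 with quantile normalization, 4 with values below 4 set to 4, 6 without the filter, 6 without the 4 arrays least like their groups, 7 with array weights and 14 when a difference of at least 2-fold was required. With each comparison fitted on its own arrays 6 changed, and non-additivity, which needs all groups, was not run. Over all tested probe sets the combination against Pax3GR gave 2106 calls, with 4914 under array weights, 787 on its own arrays, 4396 without the 4 arrays least like their groups, and 1328, 1353 and 1378 without Pax3GR replicate 4, Pax3GR replicate 5 or combination replicate 3. Pax3GR against Zic1GR gave 7037, and 10913 under array weights. The cause was not tested.

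With the replicate number as a block, 154 of the 161 calls were the same and the numbers themselves did not pair the arrays. The block ended 5 calls: foxd3.S with Pax3GR (adjusted p = 0.0772), myc.S Xl2.826.4.S1_a_at with the combination (0.0691), mycn.L in the combination against Pax3GR (0.0544), myc.S Xl2.826.1.S1_x_at in the combination against Zic1GR (0.0634) and myc.S Xl2.826.4.A1_at for non-additivity (0.0512). It added ets1.S with Pax3GR (0.0484) and ets1.L Xl2.142.2.A1_at in the combination against Zic1GR (0.0433).

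Probe sets below log2 4 have only a bound, which limits foxd3, snai2.S, sox10.L, twist1.L and mycn.S Xl2.434.1.S1_at. It also limits ets1.L Xl2.142.2.S1_a_at, of which only 2 Pax3GR arrays reached log2 4. The probe set of both twist1 copies was not run under the alternatives, and the search of promoter sequences was not run.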

Other observations

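Outside the crest, tbx1.L, pitx1.L and gata3.S changed with some injections and were not called with others, and foxi1.L fell with all 3. The placode and jaw gene tbx1.L had group means of 2.20 (GR), 11.77 (Pax3GR), 2.53 (Zic1GR) and 11.02 (combination), so that it rose by at least 219-fold with Pax3GR (limma adjusted p = 3.89e-14) and at least 130-fold with the combination (1.26e-13). The cement gland and placode gene pitx1.L had means of 2.02, 1.99, 11.25 and 2.04, a rise of at least 153-fold with Zic1GR (adjusted p = 6.33e-19) on a probe set that stayed at background in the combination. The pitx1.L probe set could pass the filter only through Zic1GR, where it was high, and that of tbx1.L only through injected groups. Their p-values describe these levels only. The ionocyte regulator foxi1.L fell, with differences of -8.47 for Pax3GR, -6.78 for Zic1GR and -8.23 for the combination (adjusted p = 0.000146, 0.0012 and 0.000262). The epidermal regulator gata3.S fell by 5.09 with Pax3GR (adjusted p = 9.48e-06) and 5.35 with the combination (adjusted p = 7.56e-06), and differed by -1.24 with Zic1GR (adjusted p = 0.14).

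Of 9 tested endoderm list copies 5 fell with each injection, 1 rose with Zic1GR and 1 with the combination. The forkhead gene foxa1.L stood at 6.87 in GR and was lower by at least 7.33-fold with each injection (adjusted p 1.33e-09 to 5.09e-09). The homeobox gene hhex.L fell, with differences of -5.87, -5.37 and -6.38 log2 (adjusted p = 3e-07, 1.29e-06 and 1.31e-07). The mesoderm list gene cer1.S, a secreted antagonist, rose by at least 13.1-fold with the combination (adjusted p = 0.000141) and was not called with Pax3GR (2.05, adjusted p = 0.0759) or Zic1GR (0.00, adjusted p = 0.999).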
